A study of Mus musculus with 12 samples.

Results

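The genes described here are 10 markers of oligodendrocyte precursor cells and of the first steps of their differentiation, among 20504 genes in a table of counts on coding sequences (CDS) and 23352 genes in a table of counts on exons. They were listed by name, with no threshold on a measured value, and all 10 are in both tables. Pdgfra, Cspg4 and Ptprz1 encode proteins of the cell surface, Tnr and C1ql1 encode secreted proteins, Olig1, Olig2 and Sox10 encode transcription factors, and Enpp6 and Bcas1 mark cells that have begun to differentiate. The 12 libraries came from the brains of 6 adult mice, all of which carried Camk2a-Cre and the RiboTag allele. In such mice Cre tags the ribosomal protein Rpl22 with an HA epitope in cells that express Camk2a, chiefly excitatory neurons of the forebrain, so that their polysomes can be immunoprecipitated (IP). Mice A and B were untreated per the labels, and the methods of the study describe their treatment as the vehicle Captisol by oral gavage. Mice C and D were given AZD-8055, which inhibits the kinase mTOR, at 100 mg/kg for 1 h. Each of these 4 mice gave a ribosome footprint library and a poly(A)-selected RNA library of the right frontal lobe. The study describes no treatment of mice E and F, and each gave an RNA library of the homogenate (input) and one of the IP.

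Oligodendrocyte precursor cells, also called NG2 glia after the proteoglycan on their surface, are a class of glia distinct from astrocytes and microglia and the source of oligodendrocytes. They respond to platelet-derived growth factor through the receptor encoded by Pdgfra, and Olig2 and Sox10 hold them in the oligodendrocyte lineage. As they differentiate, Pdgfra and Cspg4 are switched off, Enpp6 and Bcas1 come on, and the genes of compact myelin follow.

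The RNA libraries of mice A to D held 9395385 to 10649939 counts on CDS, and the footprint libraries ranged from 3503873 counts (mouse C, the smallest) to 9259938 (mouse A). The RiboTag libraries held 19681269 to 27878212 counts on exons. Among the 12 libraries none was left out. With 2 mice in each group, p-values rest on a small number of animals and on a spread that edgeR shares between genes.

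In the genome build mm10, Pdgfra lies at chr5:75151322-75198206, Cspg4 at chr9:56865104-56899870, Ptprz1 at chr6:22875315-23052916 and Tnr at chr1:159523729-159931729. C1ql1 lies at chr11:102939264-102946716, Sox10 at chr15:79154913-79164490, Enpp6 at chr8:46939197-47096762 and Bcas1 at chr2:170343973-170427911. Olig1 at chr16:91269769-91271939 and Olig2 at chr16:91225550-91228677 are neighbours, 41092 bases apart. The counts cover whole genes, so each value belongs to all exons or to the whole CDS of a gene and not to one site in it.

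The RiboTag comparison asked how far transcripts of other cells were removed from the polysomes of Camk2a-expressing neurons. Of the 10 precursor genes, 9 were lower in IP than in input and C1ql1 did not pass the test. The fall ranged from 5.50-fold for Sox10 to 29.2-fold for Enpp6. Of all 13254 genes tested, 21.8% were lower and 11.7% higher by the same call, which required an adjusted p under 0.05 and a change of over 2-fold. The median log2 change was −2.81 over the members and −0.034 over all genes. Input and IP came from the same mice, and the main test had no term for the mouse.

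The surface proteins were among the most depleted. Pdgfra, the receptor for platelet-derived growth factor, had 1367 and 1361 normalized exon counts in the inputs of mice E and F and 91.9 and 88.8 in their IPs. Its log2 ratio of IP to input was −3.92 ± 0.031 (SD, n = 2 mice). In the quasi-likelihood test of edgeR, adjusted after Benjamini and Hochberg over all genes, the log2 change was −4.03 (SE 0.12, adjusted p = 4.86e-05). The IP kept 6.72% of the input level in mouse E and 6.52% in mouse F, so both mice gave nearly the same value. Ptprz1, a receptor tyrosine phosphatase that binds pleiotrophin and is also made by astrocytes, had input counts of 4484 and 4663 and IP counts of 254 and 342. It fell by 4.05 on the log2 scale (SE 0.16, adjusted p = 5.02e-05 in edgeR). Cspg4, which encodes the NG2 proteoglycan and is also made by pericytes, had 482 and 517 counts before and 49.3 and 58.8 after the IP. The IP of Cspg4 kept 10.2% and 11.4% of the input level, more than for Pdgfra and Ptprz1 in both mice.

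The secreted proteins stood apart from each other. Tnr encodes tenascin-R, a glycoprotein of the extracellular matrix and of perineuronal nets. Its inputs held 1385 and 1389 counts and its IPs 221 and 214, a log2 ratio of −2.67 ± 0.034 (SD, n = 2 mice). The IP thus kept 16.0% and 15.4% of the input level of Tnr. C1ql1, which encodes a secreted protein of the C1q family that some neurons also make, had input counts of 148 and 144 and IP counts of 86.5 and 137. Both IP values lay below both input values, but 58.4% of the input level remained in mouse E and 95.1% in mouse F. The log2 change of C1ql1 was −0.50 (SE 0.26, adjusted p = 0.132 in edgeR). With the mouse as a block the adjusted p in edgeR was 0.023 at a log2 change of −0.51, a change still under 2-fold. Scaling by total counts gave an adjusted p of 0.0388 in edgeR at a log2 change of −0.77, also under 2-fold. Without mouse E or mouse F, which left 1 input and 1 IP library, the log2 change was −0.16 or −0.88.

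The transcription factors kept similar shares. Olig1 and Olig2 are basic helix-loop-helix factors, and Olig2 is required for the specification of the lineage. Olig1 had 1985 and 1721 input counts against 290 and 276 IP counts, and Olig2 had 491 and 493 against 89.2 and 71.5. Sox10, an HMG-box factor present through the whole oligodendrocyte lineage, had 598 and 657 input counts against 95.9 and 150 IP counts. Their log2 changes were −2.83 (SE 0.12) for Olig1, −2.73 (SE 0.17) for Olig2 and −2.46 (SE 0.22) for Sox10, with the largest adjusted p at 0.000179 in edgeR. The IP values lay below both input values for each of the 3 factors, as they did for 39.5% of all 13254 genes.

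The genes of early differentiation were depleted to different degrees. Enpp6 encodes a choline-specific phosphodiesterase of newly formed oligodendrocytes. It had normalized input counts of 122 and 119 and IP counts of 6.66 and 2.31, which rest on 5 and 2 reads counted. The IP kept 5.47% of the input level in mouse E (95% exact binomial interval 1.75 to 13.1) and 1.94% in mouse F (0.233 to 7.11), and these intervals cover counting error only. Its log2 change was −4.87 (SE 0.41, adjusted p = 0.000157 in edgeR), and the shares kept by Pdgfra lay inside both intervals, so that the order of these genes was not settled at this depth. Bcas1, a gene of early myelinating oligodendrocytes, had input counts of 2006 and 1830 against IP counts of 361 and 370, and the IP kept 18.0% and 20.2% of the input level. On CDS counts 9 of the 10 genes were called lower as well. Of all 12211 genes tested on CDS counts, 2493 were called higher. Over the alternative settings of this comparison, 1776 to 4731 of all genes were called lower.

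**Figure D1:**
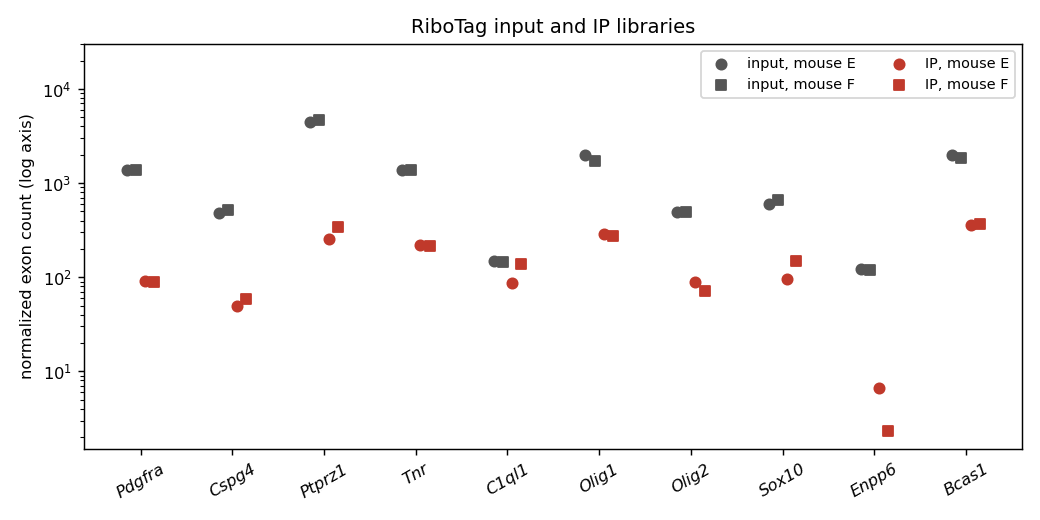
Normalized exon counts (log axis) of the 10 precursor genes in the input (grey) and IP (red) libraries of mouse E (circles) and mouse F (squares). The IP values lie below both input values for all 10 genes, against 39.5% of all genes tested, with the narrowest gap for C1ql1, where mouse F had 144 in the input and 137 in the IP.

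The summed level of the 10 genes in IP was 11.8% of that in input in mouse E and 13.3% in mouse F. A sum weights abundant genes most. Ptprz1 alone held 4484 of the 13068.1 summed input counts in mouse E and 4663 of 12894.5 in mouse F. For 19 myelin genes of mature oligodendrocytes the summed level was 15.4% and 16.4%, and for 12 astrocyte markers 18.7% and 20.4%. Other cell types kept shares near or below those of the members. The sums were 12.1% and 12.7% for 10 microglial, 11.4% and 12.1% for 8 mural cell and 8.67% and 12.5% for 9 endothelial markers. For 5 fibroblast markers the sum was 15.4% and 20.3%. The 8 markers of excitatory neurons stood at 200% and 201%, and the 9 markers of inhibitory neurons, which the Camk2a driver should leave out, at 29.3% and 20.9%. By single genes, 19 of 19 myelin genes were lower, from Aspa at −3.66 to Mbp at −2.21 on the log2 scale, and 11 of 12 astrocyte markers were lower. The median log2 change was −2.81 for the members, −2.89 for the myelin genes and −2.90 for the astrocyte markers, so the medians did not follow the order of the sums. Medians were lower for the microglial (−3.20), mural cell (−3.51) and endothelial markers (−3.74) and higher for the fibroblast markers (−2.48). The ranges of the precursor genes and of the myelin genes overlapped, and no test set one list against the other.

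Other genes of the pathways in which the members act were depleted less uniformly. Of 5 genes for platelet-derived growth factors and the related receptor, 4 were tested and 1 was lower, Pdgfrb, the receptor of pericytes, at −3.45 on the log2 scale. The highest of this list was Pdgfa, which encodes the ligand of the Pdgfra receptor, at 0.86. Of 10 partners of Ptprz1 and Tnr in the matrix, 6 were lower, from the link protein gene Hapln1 at −3.37 to Hapln4 at 0.81, which was −0.12 on CDS counts. Of 13 other transcription factors of the lineage that were tested, 7 were lower, from Myrf, the activator of myelin genes, at −3.57 to Id2 at 0.75. Of 12 other genes of precursors and newly formed oligodendrocytes, 6 were lower, from Gpr17 at −3.48 to Megf11 at 0.75, which was −0.10 on CDS counts. None of these 4 lists had a gene called higher on exon counts. On CDS counts only the lowest and highest gene of each list were followed. Of these, Pdgfa was called higher, at 1.27 (adjusted p = 4.08e-05 in edgeR), as were 2493 of all 12211 genes. Their summed level in IP was 133% and 105% of input for the growth factor list, 76.5% and 76.3% for the matrix list, 71.3% and 85.8% for the factors and 102% and 104% for the other precursor genes. These sums weight abundant genes most. By gene, the median log2 change was 0.39 for the growth factor list, −2.14 for the matrix list, −1.53 for the factors and −1.30 for the other precursor genes.

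Translation efficiency (TE) is the ratio of footprints to RNA on the CDS of a gene, each divided by its library's DESeq2 size factor, and the comparison asked where the precursor genes stand among all genes. A log2 TE of 0 means that footprints and RNA stand as in a typical gene. In the untreated mice Tnr, Pdgfra and Ptprz1 were called above 0, and Bcas1 and C1ql1 below 0. Of all 11797 genes tested, 13.2% were higher and 17.6% lower by the same call of adjusted p under 0.05 and over 2-fold. Cspg4, Enpp6 and Sox10 passed the adjusted p but not the fold, which 73.8% of all genes did in one direction or the other. Olig1 and Olig2 passed neither limit.

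Tnr had the highest TE of the members. Its footprints numbered 1777 and 798 in mice A and B against 515 and 571 RNA counts, which gave log2 TEs of 1.93 and 1.67, or 1.80 ± 0.19 (SD, n = 2 mice). By edgeR's quasi-likelihood test the log2 TE was 1.85 (SE 0.082, adjusted p = 1.52e-11), and the gene stood at percentile 97.4 of the 10882 genes with a TE. C1ql1, the other secreted protein, had 22 and 21 footprints against 69 and 81 RNA counts. These are below the study's limit of 75 footprints over both mice, so C1ql1 was given no TE among the ranked genes, and its ratios of −1.50 and −0.76 lay far apart. It was called at −1.13 (SE 0.33, adjusted p = 0.0066 in edgeR). Without mouse A, which left mouse B alone in the untreated group, it was −0.68, under the limit of 2-fold.

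The surface proteins all had positive log2 TEs in both mice. Pdgfra had 757 and 348 footprints against 363 and 388 RNA counts, and its log2 TEs were 1.21 and 1.03 (edgeR 1.17, SE 0.10, adjusted p = 4.29e-08). Ptprz1 had 5294 and 2462 footprints against 2640 and 3122 RNA counts, and its log2 TEs were 1.15 and 0.85. The ranges of Pdgfra and Ptprz1 overlapped. Ptprz1 was called at 1.04 (SE 0.090, adjusted p = 3.8e-08 in edgeR), close to the limit of 2-fold, and it fell under that limit without mouse A (0.92). Cspg4 had log2 TEs of 0.75 and 0.52, from 379 and 195 footprints (edgeR 0.67, SE 0.14, adjusted p = 0.000426), lower than Pdgfra and Ptprz1 in both mice.

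The transcription factors had lower TEs than the surface proteins. Olig1 had 594 and 343 footprints against 568 and 756 RNA counts and log2 TEs of 0.21 and 0.048. Olig2 had 116 and 78 footprints against 143 and 205 RNA counts and log2 TEs of −0.15 and −0.21, so the neighbouring genes did not overlap but both stood near the median of all genes, 0.016. Sox10 had log2 TEs of −0.56 and −0.54 from 189 and 117 footprints (edgeR −0.53, SE 0.19, adjusted p = 0.0191). The 3 factors stood at percentiles 55.4, 41.6 and 27.4, and every one of them was below Cspg4, the lowest surface protein, in both mice.

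The genes of early differentiation differed from each other in TE. Enpp6 had 105 and 62 footprints against 65 and 79 RNA counts and a log2 TE of 0.84 in both mice (edgeR 0.86, SE 0.23, adjusted p = 0.00276). Bcas1 had 495 and 251 footprints against 1117 and 1322 RNA counts and log2 TEs of −1.03 and −1.21 (edgeR −1.08, SE 0.13, adjusted p = 1.93e-06). Bcas1 thus stood at percentile 13.0 and Enpp6 at percentile 83.6. In the order of log2 TE, Tnr was followed by Pdgfra, Ptprz1, Enpp6, Cspg4, Olig1, Olig2, Sox10 and Bcas1. Between neighbours in that order, Pdgfra and Ptprz1 overlapped, and Enpp6 lay within 1 SE of Ptprz1 and of Cspg4, while the other neighbours were apart in both mice. With 2 SE around the edgeR estimates, only Tnr was apart from its neighbour, so the rest of the order was not settled. The SD of log2 TE over all 10882 genes was 0.99, and the SD of the difference between mice A and B across genes was 0.28.

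**Figure D2:**
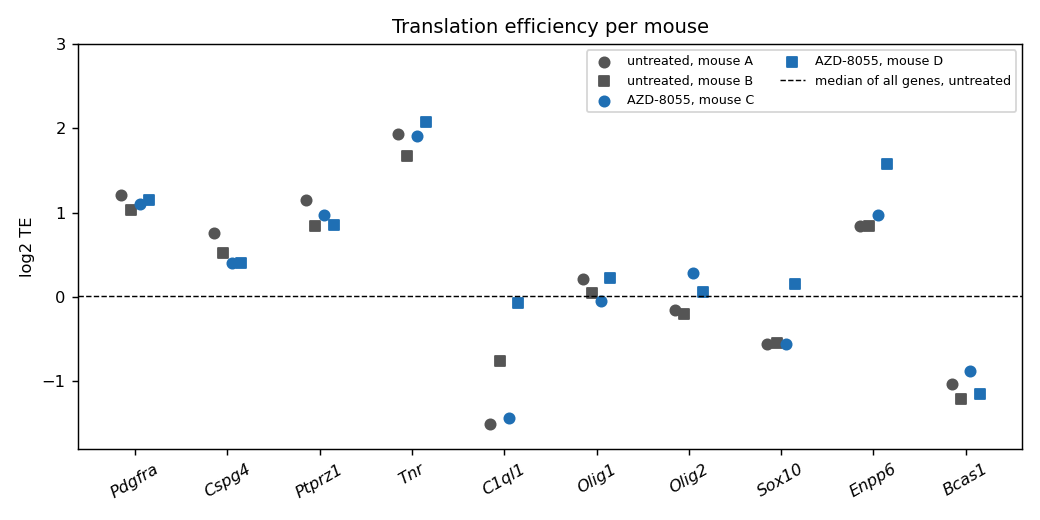
Log2 TE of the 10 precursor genes in untreated mice A and B (grey) and in AZD-8055-treated mice C and D (blue), with the median of all genes in untreated mice as a dashed line. Tnr lies highest in all 4 mice, the surface proteins lie above the line, and Sox10 lies between −0.56 and −0.54 in mice A, B and C and at 0.15 in mouse D.

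Of the 9 members with a TE, 6 stood above the median of all genes and 3 below, and their median log2 TE was 0.64 (mouse A 0.75, mouse B 0.52). The median was 0.24 for 18 myelin genes and 0.40 for 12 astrocyte markers. Among the pathway lists, 10 matrix partners had a median of 0.66, and Hapln1, Cntn1 and Hapln4 were called higher. Cntn1, a neuronal adhesion molecule that binds Ptprz1 and Tnr, was the highest of these at 1.39, and Bcan, the brevican gene, the lowest at −0.93. The 10 other lineage factors with a TE had a median of 0.90, and Sox9, Id2, Id4, Sox5 and Sox6 were called higher (without mouse A, Sox9 and Id2 fell under 2-fold, at 0.91 and 0.98), with Sox6 at 1.88 the highest and Hes5 at −0.88 the lowest. Olig1, Olig2 and Sox10 thus lay between the extremes of the other factors of the lineage. Of the other precursor genes, Sema5a (2.75, the highest) and Gpr17 were called higher (Gpr17 fell under 2-fold without mouse A, at 0.94) and Fyn was the lowest at −1.01, with a median of 0.041 over 11 genes. The growth factor list had a median of −0.32 over 4 genes, from Pdgfa, which was called lower, at −1.86 to Pdgfc at 0.19. No test compared the lists.

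The genes most like the members in both measures were Acot11, Ttyh2, Dio2 and Bgn. They had the smallest root mean square distance, 0.13 to 0.14 on the log2 scale, from the members' median in IP enrichment (mice E and F) and TE (mice A and B), among 10835 genes. That median was −2.77 and −2.79 for enrichment and 0.75 and 0.52 for TE, over the 9 members with both values.

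**Figure D3:**
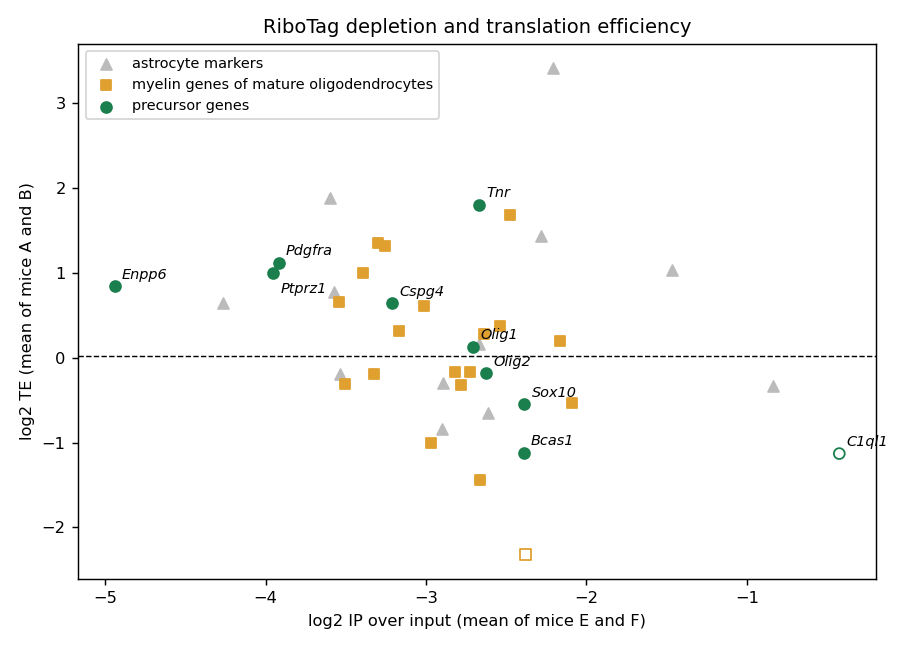
Log2 ratio of IP to input (mean of mice E and F, x axis) against log2 TE (mean of mice A and B, y axis) for precursor genes (green), myelin genes (orange squares) and astrocyte markers (grey triangles). Open symbols are genes under the footprint limit and the dashed line is the median TE of all genes, and C1ql1 lies alone at the right with an IP ratio of −0.42.

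TE was computed on CDS counts, and the share of a gene's exon counts that lay on the CDS differed between members. In the 6 RNA libraries of tissue homogenate, 86.9% to 92.7% of the exon counts of Ptprz1 lay on its CDS, and 73.0% to 76.3% of those of Tnr. The share was 38.2% to 48.6% for Pdgfra, 29.7% to 35.7% for Olig2 and 28.6% to 33.0% for Olig1. Pdgfra, Olig2 and Olig1 had a minority of their exon counts on the CDS, and a relation of this share to TE was not tested. In the IP libraries the CDS share was lower for Pdgfra, at 23.2% and 18.2%, and for Ptprz1, at 55.0% and 62.0%. Over all genes, exon counts exceeded CDS counts by a median of 0.56 and 0.58 (log2) in the inputs, against 0.84 and 0.93 in the IPs.

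The third comparison asked whether inhibition of mTOR changed the translation of the precursor genes. None of the 10 was called for a change in TE, where 0.305% of all 11797 genes were, and none for a change in RNA, where 0.148% of 12182 genes were. None of the 9 tested members was called for a change in footprints, where 1.03% of 10695 genes were. In all 3 edgeR tests 0 members had an unadjusted p under 0.05, and DESeq2 also called 0. The RNA and footprint tests required an adjusted p under 0.05 alone, and C1ql1 had too few footprints to enter the latter. These comparisons use the same untreated libraries as the TEs above, so the values are given side by side and not as independent results.

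The largest estimates of a change in TE belonged to genes with few footprints. C1ql1 had a log2 change of 0.59 (SE 0.48), Enpp6 of 0.52 (SE 0.33), Sox10 of 0.49 (SE 0.28) and Olig2 of 0.40 (SE 0.29). The estimates for Tnr (0.19, SE 0.12), Pdgfra (0.011, SE 0.15), Ptprz1 (−0.081, SE 0.13) and Cspg4 (−0.21, SE 0.20) were closer to 0 and their errors smaller. Adjusted p-values of the 10 genes ran from 0.777 to 0.996 in edgeR. Of the 10 estimates 8 were positive, and their median was 0.15 against −0.011 over all genes. TEs of treated and untreated mice did not overlap for 3 members, Cspg4 (lower after AZD-8055) and Olig2 and Enpp6 (higher), and 37.2% of all genes did not overlap.

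In these bulk libraries, fewer cells of a type and less RNA per cell cannot be told apart between mice. At the RNA level, Enpp6 had 69.4 and 78.7 normalized CDS counts in untreated mice and 55.8 and 56.3 after AZD-8055. The treated values lay below both untreated ones, at a log2 change of −0.41 (SE 0.22, adjusted p = 0.676 in edgeR). Tnr had 550 and 569 counts in untreated mice and 513 and 485 after AZD-8055, also without overlap, at −0.17 (SE 0.088, adjusted p = 0.658). These were the only 2 members whose groups did not overlap, and 38.9% of all genes did not. Pdgfra had 387 and 386 counts in untreated mice and 373 and 416 after AZD-8055, so its treated values lay on both sides of the untreated ones. The estimates for Cspg4 and Sox10 were 0.21 (SE 0.13) and −0.19 (SE 0.12), and those of the other 6 lay between −0.078 and 0.11.

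In footprints, Olig2 was the only member without overlap, with 66.5 and 86.3 normalized counts in untreated mice and 88.9 and 98.5 after AZD-8055, and 41.7% of all genes did not overlap. Its log2 change was 0.35 (SE 0.20, adjusted p = 0.48 in edgeR). Sox10 had 108 and 129 counts in untreated mice and 99.2 and 180 after AZD-8055, so that the treated mice lay on either side of the untreated ones. Its change was 0.31 (SE 0.25, adjusted p = 0.629). Ptprz1 had 3033 and 2724 counts against 2850 and 2337, a change of −0.14 (SE 0.086, adjusted p = 0.525). Leaving out mouse C, whose footprint library was the smallest, left mouse D alone in the treated group and moved both estimates. Without mouse C the log2 change was 0.66 for Sox10 and −0.27 for Ptprz1, and the spread then came from mice A and B only. The footprint changes of the other 6 tested members lay between 0.019 and 0.13.

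**Figure D4:**
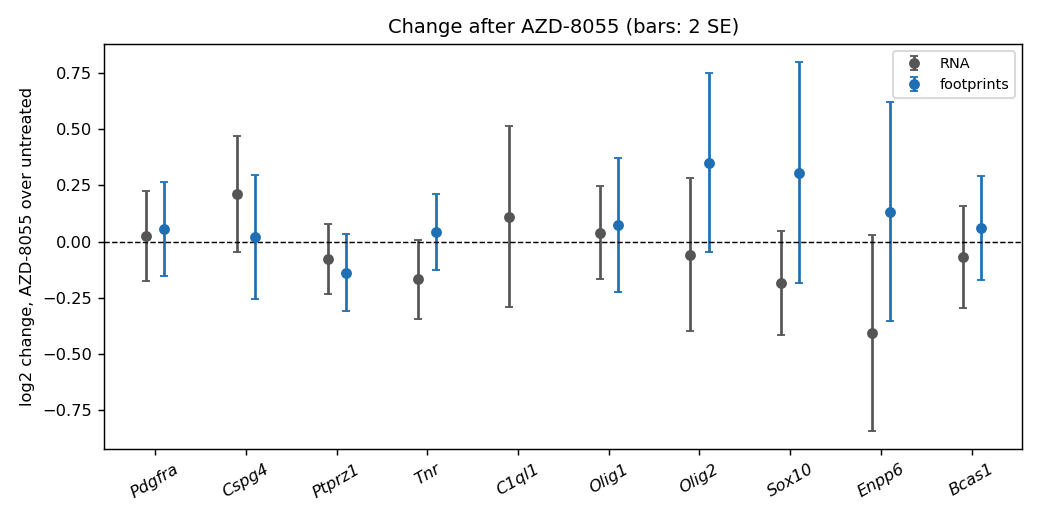
Log2 change after AZD-8055 in RNA (grey) and footprints (blue) of the precursor genes, from edgeR, with bars of 2 SE. The bars of every member reach 0 in RNA and in footprints, and no footprint value is drawn for C1ql1, which was not tested.

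The pathway lists had few calls after AZD-8055. Among the 11 other lineage factors tested in RNA, Hes5, a target of Notch signalling, fell by 1.15 on the log2 scale (SE 0.19, adjusted p = 0.0228 in edgeR). This call was lost without mouse A (−1.15), mouse B (−1.15) or mouse D (−0.96), where 1 mouse was left in a group. No other gene of the 4 pathway lists was called in RNA, footprints or TE. The other factors ran up to Id4 at 0.15 in RNA. Myelin genes, astrocyte markers and the other markers of cell types had no gene called in any of the 3 tests. Median changes in RNA were −0.063 for the members, −0.051 for the myelin genes and −0.0035 for all genes. In footprints the medians were 0.061, −0.023 and 0.00099.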

How the data were processed

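The authors deposited counts of reads per gene without normalization, on CDS for 12 libraries and on exons for the 8 RNA libraries. Per the labels and the study's methods, reads were trimmed, rRNA reads were removed with Bowtie2, and the rest were aligned to mm10 with TopHat2 and counted with HTSeq. The annotation used for counting is not given in the sources used here, and gene positions came from a RefSeq table of GRCm38.p6, in which 10 of 10 symbols matched.

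Comparisons were tested with edgeR 4.0.16 (TMM, quasi-likelihood F-test, Benjamini-Hochberg adjustment over all genes tested) in R 4.3.3, after leaving out genes whose mean count per library was under 37. Calls required an adjusted p under 0.05 and, for IP, TE and the change in TE (an interaction of library kind and treatment), a change of over 2-fold. IP used exon counts and the other comparisons CDS counts. The main tests compared group means without a term for the mouse. They thus left out the pairing of input with IP and of footprints with RNA, and the mouse as a block was an alternative. Values per mouse were counts divided by DESeq2 1.42.0 size factors. A TE was ranked where both mice together had at least 75 counts in footprints and in RNA. The SE was the log2 change divided by the root of F. The procedures were run on simulated data in which each library was drawn independently, without pairing by mouse. Those runs cannot show how the tests behave on libraries paired by mouse.

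Libraries with the same letter came from 1 mouse. The difference between mice correlated between library kinds across genes at 0.236 (A and B), 0.225 (C and D) and 0.558 (E and F). These values describe the libraries, since genes are not independent replicates. No pair of libraries of a group was the same within counting error.

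The members and lists were chosen with earlier results of these data known. Of the lists other than the members, counts, medians, the lowest and highest gene, and called genes where 5 or fewer were called, are named, and so are the genes nearest to the members' median in IP enrichment and TE. A gene that this rule covers is not reported here. Alternatives were DESeq2, other scalings and filters, no limit on the fold, the mouse as a block, the other count table, other libraries in the fit and leaving out each mouse.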

Additional observations from a re-analysis of the deposited data

How the results depend on the processing

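In the alternatives for the IP comparison 9 members were lower and 0 higher, other than with a mean of at least 200 counts, where 8 were lower because Enpp6 was not tested. In every comparison where a mouse was left out, the lone mouse of its group was assumed to vary like the other groups. The calls of those fits therefore do not measure the spread within that group. The members' median log2 change of −2.81 became −2.78 with DESeq2, with DESeq2 size factors and with all 8 RNA libraries in the fit. It was −3.09 with scaling by total counts, −2.72 without a filter on low counts, −2.92 with a mean of at least 200 counts and −2.98 on CDS counts. Scaling by total counts moved the median of all genes to −0.31 in IP and −0.15 in TE. On CDS counts Hapln4 (−0.12) and Megf11 (−0.10) turned negative in IP. Pdgfa (1.27) passed the call in the higher direction there, as did 2493 of all 12211 genes.

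In edgeR the members' median log2 TE was 0.41 over all 10, with C1ql1 included, against 0.64 for the 9 ranked members above. This edgeR median became 0.27 with scaling by total counts and 0.65 with at least 200 counts. With at least 200 counts 1 member was called lower, as were 1309 of all 7216 genes tested. Without the limit on the fold 5 members were called higher, as were 4302 of all 11797 genes. Leaving out 1 mouse gave 1 to 2 members called lower, and −0.12 to 0.58 for Pdgfc. Ptprz1 fell under 2-fold with scaling by total counts (0.90) and without a filter (0.96).

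After AZD-8055 no alternative called a member in TE or RNA. The median change in TE was 0.051 with at least 200 counts and ran from −0.011 to 0.22 over the mice left out, and that in RNA from −0.14 to 0.048. Without a filter the change in TE was −0.037 for Pdgfra and −0.030 for Olig1, and the change in footprints was −0.019 for Cspg4. With the mouse as a replicate block the change in TE of Olig1 was −0.021, and the block changed no call of a member other than the adjusted p of C1ql1 in IP. On exon counts the RNA of C1ql1 changed by −0.043. Leaving out 1 mouse moved the change in TE between −0.044 and 0.083 for Pdgfra, −0.21 and 0.047 for Ptprz1, −0.28 and 1.12 for C1ql1 and −0.17 and 0.14 for Olig1. In RNA it lay between −0.057 and 0.10 for Pdgfra, −0.16 and 0.0014 for Ptprz1, −0.0068 and 0.22 for C1ql1, −0.11 and 0.21 for Olig1, −0.27 and 0.18 for Olig2 and −0.33 and 0.15 for Bcas1. In footprints it lay between −0.080 and 0.16 for Pdgfra, −0.19 and 0.18 for Cspg4, −0.024 and 0.12 for Tnr, −0.21 and 0.29 for Olig1, −0.24 and 0.66 for Sox10, −0.26 and 0.40 for Enpp6 and −0.075 and 0.17 for Bcas1, with 0 to 1 members called in each direction. The cause of these shifts was not tested.

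The counts over all genes moved more. In IP, 774 to 4463 genes were higher and 1776 to 4731 lower, and in TE 909 to 4302 and 1309 to 4401. For the change in TE 0 to 13 were higher and 27 to 93 lower, in RNA 2 to 30 and 9 to 48, and in footprints 2 to 355 and 61 to 482. The upper ends came from dropping the fold limit (IP, TE, lower changes in TE), from no filter (higher changes in TE, and RNA) and from leaving out mouse C (footprints). Depth limits C1ql1, Enpp6 and Olig2 most, which had 21 to 116 footprints in the untreated mice.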

Other observations

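The tissue RNA of mice A and B and the inputs of mice E and F can be set side by side on CDS counts. The labels place mice A and B in the ribosome profiling set and mice E and F in the RiboTag set. The sets differ in more than the animal and cannot be told apart from the mice, so these are values without a test. The 3 surface proteins and tenascin-R had more RNA in both inputs of mice E and F than in mice A and B. Tnr had 646 and 665 normalized counts in mice A and B and 1017 and 1100 in mice E and F, and Pdgfra had 455 and 452 against 669 and 616. The log2 differences were 0.69 for Tnr, 0.50 for Pdgfra, 0.33 for Ptprz1 and 0.31 for Cspg4. The transcription factors and the genes of early differentiation lay the other way. Olig1 differed by −0.44, Olig2 by −0.42, Sox10 by −0.22, Enpp6 by −0.41 and Bcas1 by −0.44, with both values of mice E and F below both of mice A and B, and C1ql1 overlapped. Of all 12483 genes, 57.8% did not overlap between these pairs of mice, 29.0% with mice E and F above and 28.8% with them below. Of 19 myelin genes 16 were lower in mice E and F, at a median of −0.30, while the median of 9 endothelial markers was 0.39, that of 8 excitatory neuron markers 0.30 and that of all 12483 genes −0.00022.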
